A study of Mus musculus with 12 samples.

Results

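The Slc25 family holds the carriers that move metabolites across the inner mitochondrial membrane, and its transcripts were followed here in whole kidneys of mice at postnatal day 15. Members were the protein-coding genes named Slc25a with a number that had at least 10 estimated counts in 3 or more of 12 libraries. Of 47 genes with such a name, 42 met this rule, out of 15646 protein-coding genes in all that did, and all 42 were also tested. The 5 that did not were Slc25a2 (at most 12 counts in a library, 2 libraries at 10), Slc25a18 (at most 5), Slc25a31 (at most 4), Slc25a41 (at most 4) and Slc25a54 (0 in every library). Just inside the rule were Slc25a47 and Slc25a43, whose third-highest counts were 58 and 60.

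The 12 libraries fell into 4 groups of 3. Cep120 is needed at the centrioles from which cilia grow, and the product of Pkd1, polycystin-1, sits on primary cilia, where its loss gives cystic kidneys. The labels name Hoxb7 for the Cep120 animals, and the titles carry hox in both lines. As background, the usual Hoxb7-Cre driver has its domain in the ureteric bud lineage, that is, the collecting duct and not the rest of the nephron. Libraries with the genotype Cep120 KO or Pkd1 KO had titles that say homo. The controls of each line had titles that say het and a genotype given as WT, and they are called Cep120 controls and Pkd1 controls. The labels do not state whether replicates were different mice, so p-values measure the spread between these libraries, which may be technical.

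A typical carrier is a small protein of repeated membrane-spanning pairs that swaps a substrate in the matrix for one in the cytosol. The family also includes the peroxisomal Slc25a17 and the outer-membrane protein Slc25a46. The ADP/ATP and phosphate carriers feed ATP synthase and export its product. The dicarboxylate, aspartate/glutamate and ornithine carriers link the matrix to gluconeogenesis, the malate-aspartate shuttle and the urea cycle, and others bring in cofactors such as coenzyme A and NAD. In the kidney, mitochondria are densest in the proximal tubule and thick ascending limb, which burn fatty acids and other fuels to power reabsorption.

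Several facts about the libraries bear on what follows. Totals ran from 23070736 to 31837973 estimated counts, and CPM is a gene's count scaled to a common library size. In whole-kidney RNA neither targeted gene was below its controls. Cep120 was at 16.6 to 20.4 CPM in the KO-labelled Cep120 libraries and 13.7 to 18.7 CPM in their controls, so that the log2 difference was 0.14 with an SE of 0.16 (edgeR adjusted p = 0.835), and Pkd1 was at 23.9 to 36.4 CPM in the KO-labelled Pkd1 libraries against 13.9 to 21.6 CPM, higher by 0.74 (SE 0.20, edgeR adjusted p = 0.00952), so the directions given here depend on the labels. Genes with a count above 0 numbered 30321 to 32740 in 6 libraries (the Cep120 line without control 3, plus Pkd1 control 3) and 23544 to 25665 in the remaining 6, so that the third control library of each line stood with the opposite line. Xist, transcribed from the inactive X, stayed under 1 CPM in the 3 KO-labelled Pkd1 libraries and in 2 of 3 KO-labelled Cep120 libraries (1 and 2), and reached 49.97 to 184 CPM in the others. Xist thus separates the Pkd1 groups exactly as the genotype does, and the effects of sex and genotype cannot be told apart in that line. The Cep120 groups were unbalanced in Xist too. Sex and genotype are therefore partly mixed in the Cep120 comparison and in the difference between lines. Cep120 controls 1 and 2 differed far less than other pairs of a group, at a chi-square per gene of 5.51 against 25.6 to 68.6.

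Sequence upstream of the start site was read for the members that RefSeq lists with a promoter on GRCm38.p6, which were 33 of 42, with 43 entries. Shown are the 250 bases before the start of Slc25a24 and Slc25a23, related ATP-Mg/phosphate carriers that moved in opposite directions in the Pkd1 comparison, and of Slc25a34 and Slc25a21, whose windows held a motif. Each sequence is given on the gene's strand, and capitals mark the motif, which in both windows lies on the opposite strand (TGACCTT is AAGGTCA and TTTATA is TATAAA read there).
Slc25a24, chr3:109122899-109123148, plus strand: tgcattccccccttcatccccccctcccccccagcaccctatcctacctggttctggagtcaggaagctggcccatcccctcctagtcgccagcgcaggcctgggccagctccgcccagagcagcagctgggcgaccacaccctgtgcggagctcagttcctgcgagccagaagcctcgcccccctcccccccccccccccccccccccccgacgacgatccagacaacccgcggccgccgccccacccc
Slc25a23, chr17:57059864-57060113, minus strand: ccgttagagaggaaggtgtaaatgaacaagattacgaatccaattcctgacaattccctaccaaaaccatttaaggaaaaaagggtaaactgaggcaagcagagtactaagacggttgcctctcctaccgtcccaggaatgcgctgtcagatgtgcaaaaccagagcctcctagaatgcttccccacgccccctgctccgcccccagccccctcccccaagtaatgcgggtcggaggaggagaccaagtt
Slc25a34, chr4:141623835-141624084, minus strand: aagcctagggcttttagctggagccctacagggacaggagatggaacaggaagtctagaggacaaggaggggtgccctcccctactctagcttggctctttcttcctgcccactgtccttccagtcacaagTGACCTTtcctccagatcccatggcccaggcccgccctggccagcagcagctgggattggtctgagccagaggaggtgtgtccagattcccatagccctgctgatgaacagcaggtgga
Slc25a21, second listed start, chr12:57160644-57160893, minus strand: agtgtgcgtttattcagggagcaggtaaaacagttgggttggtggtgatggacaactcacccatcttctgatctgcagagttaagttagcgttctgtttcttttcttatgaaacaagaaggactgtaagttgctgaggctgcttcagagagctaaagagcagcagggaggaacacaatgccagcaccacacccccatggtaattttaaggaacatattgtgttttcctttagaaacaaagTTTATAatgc
None of these 4 windows overlapped an exon of the GENCODE M21 annotation. Motifs were searched as letters on both strands. AAGGTCA, a half-site bound by estrogen-related receptors, was in the window of 1 of 33 members, Slc25a34, against 4.08% of 32851 listed promoters. The NRF1 motif was in that of Slc25a3, against 3.74%. CCGGAAG, bound by ETS factors, was in those of 5 members (Slc25a3, Slc25a4, Slc25a17, Slc25a20 and Slc25a38), against 6.91%. TATAAA was in that of Slc25a21 at its second start, against 12.4%. These are matches of letters and no evidence of binding.

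Levels across the family spanned a wide range (plot of levels by library). In TPM, which corrects for length, 8 members averaged above 100 over the 12 libraries, 15 lay between 10 and 100, and 19 were below 10. Slc25a5, the ubiquitous ADP/ATP carrier ANT2, led with a mean of 3230 TPM, followed by Slc25a4, the heart and muscle isoform ANT1, at 1022 TPM and the phosphate carrier Slc25a3 at 533 TPM. Next came Slc25a39, needed for mitochondrial glutathione import, at 268 TPM, the dicarboxylate carrier Slc25a10 at 266 TPM and the oxoglutarate carrier Slc25a11 at 181 TPM. Slc25a43 and Slc25a48 had the lowest means, 1.53 and 1.54 TPM. Slc25a5 alone made up 45.5 to 54.3% of the summed TPM of the family in each library.

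**Figure D1:**
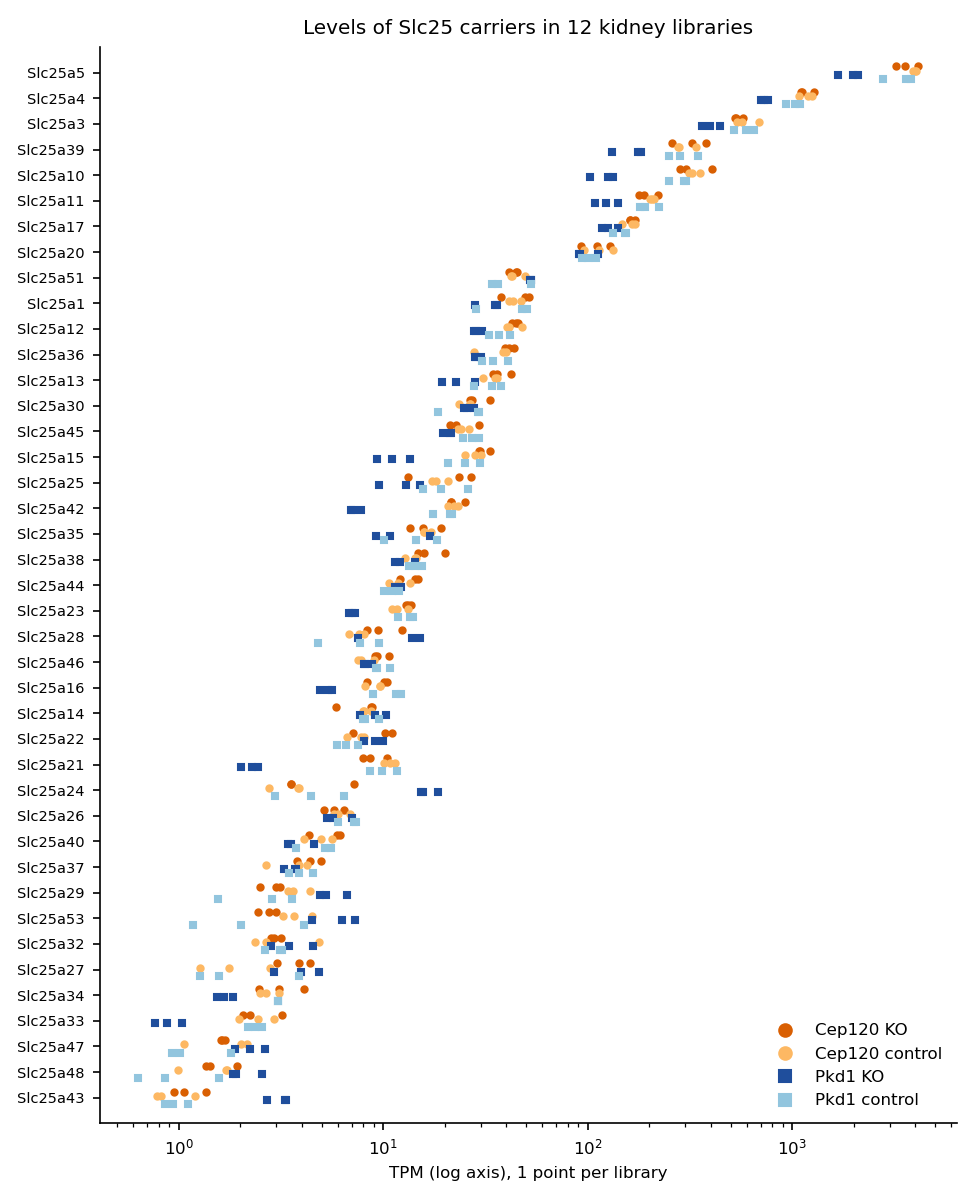
TPM of each carrier shown (log axis, 1 point per library, 3 libraries per group), ordered by mean level from Slc25a5 at 3230 TPM to Slc25a43 at 1.53 TPM. For the strongest carriers the dark blue points of the KO-labelled Pkd1 libraries lie to the left of the others, and for Slc25a24, Slc25a29 and Slc25a43 they lie to the right.

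The first comparison asked how whole kidneys labelled Pkd1 KO differ from Pkd1 controls. Carrier transcripts were lower in sum and in most members. The summed TPM of the family was 4112 ± 379.9 (SD, n = 3) in the KO-labelled Pkd1 libraries, between 3701 and 4449.9, and 6542 ± 762 (SD, n = 3) in the controls, between 5751 and 7271. The groups did not overlap, nor did they with Slc25a5 left out, at 2017 to 2345 against 2982 to 3470 TPM. In CPM, scaled by TMM, 24 of 42 members fell and 5 rose, and 13 did not pass the test (edgeR quasi-likelihood, Benjamini-Hochberg adjusted p under 0.05). Over all 19890 genes tested, 44.4% passed, 22.1% higher and 22.4% lower. The median log2 fold change was -0.49 over the members and -0.04 over all genes. All 29 called members had groups that did not overlap in CPM, as had 32 of 42 members (7 higher, 25 lower) and 53% of all genes (27.4% higher, 25.5% lower). This separation depends on the scaling, since some called members overlapped in TPM. Slc25a1 was at 27.95 to 36.2 TPM in the KO-labelled Pkd1 libraries against 28.4 to 50.7 TPM in the controls. Slc25a13 was at 19.3 to 28.1 TPM against 27.6 to 37.7 TPM.

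**Figure D2:**
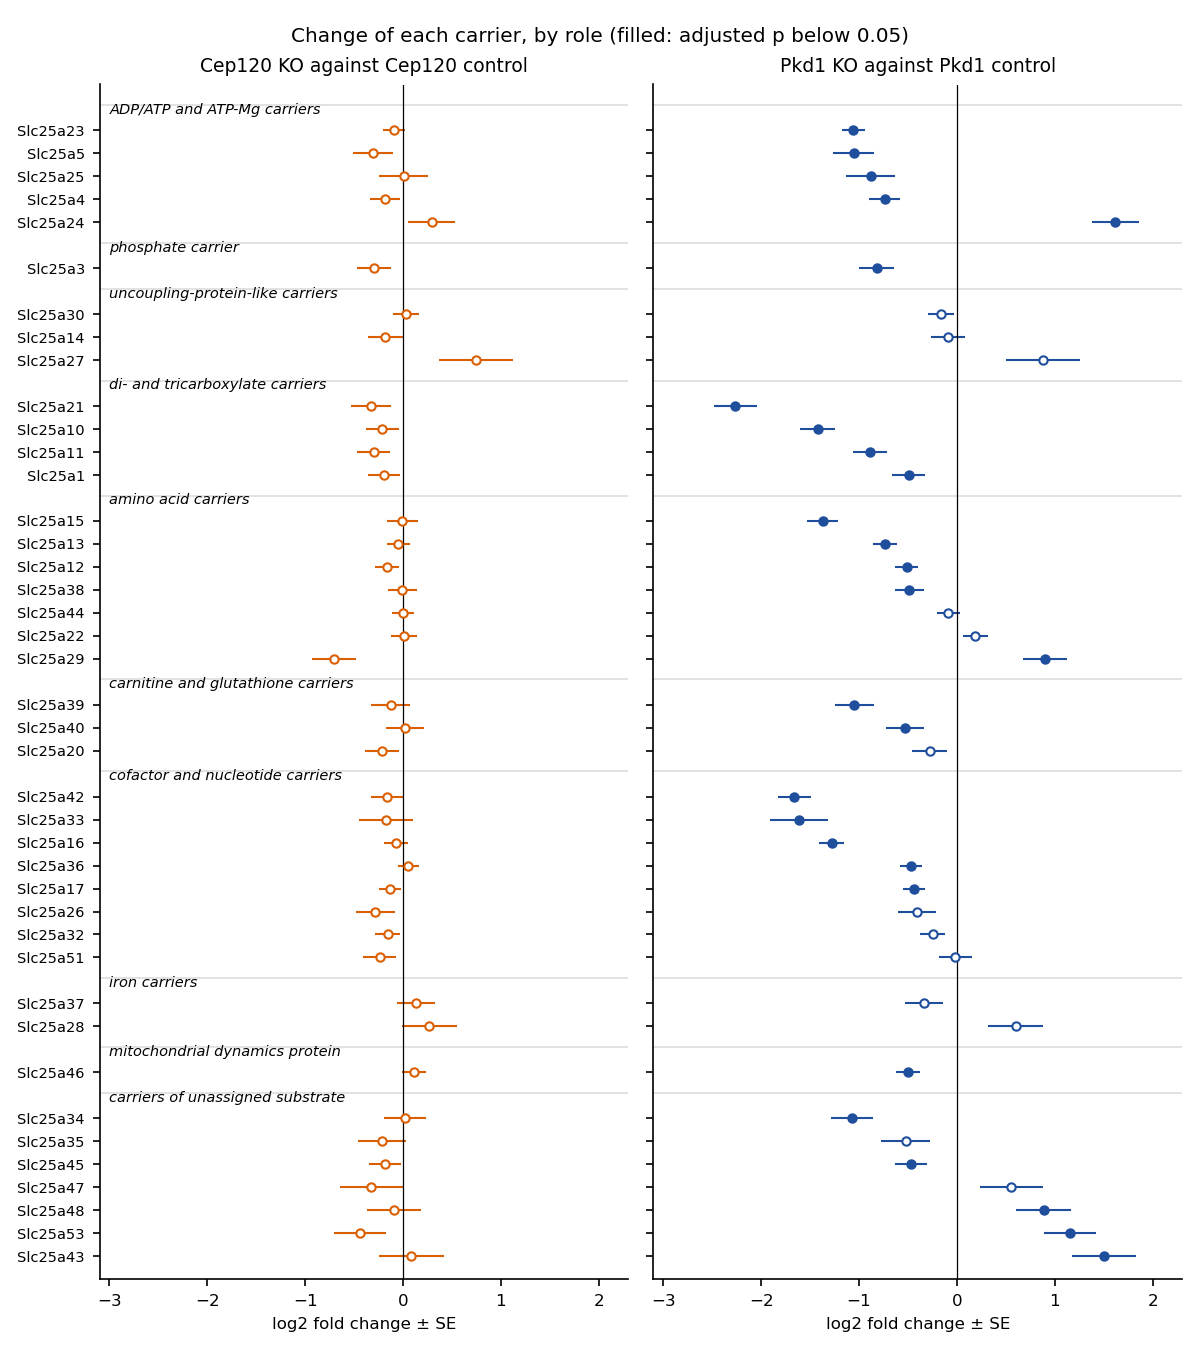
Log2 fold change ± SE of each carrier in both lines, grouped by role, with filled points at an adjusted p under 0.05 (3 libraries per group). In the Cep120 line no point is filled, and in the Pkd1 line most filled points lie left of 0 and 5 lie right of it.

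The carriers of adenine nucleotides all changed. Slc25a5 was at 1458, 1826 and 1829 CPM in Pkd1 KO libraries 1 to 3 and at 3762, 4389 and 2473 CPM in Pkd1 controls 1 to 3. Every KO library lay below every control, and the log2 fold change was -1.06 (SE 0.21, edgeR adjusted p = 0.00121). Slc25a4 was at 887, 993 and 969 CPM against 1619, 1897 and 1239 CPM, a log2 fold change of -0.74 (SE 0.16). Both groups were again separate, with control 3 the nearest to the KO libraries. Since Slc25a5 differed more, the share of Slc25a4 in the summed TPM of the pair was 26.5 to 29.4% in the KO-labelled Pkd1 libraries and 22.4 to 25.1% in the controls.

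The ATP-Mg/phosphate carriers, which are gated by calcium and set the adenine nucleotide pool of the matrix, split. Slc25a24 (SCaMC-1) was at 35.9, 38.4 and 43.0 CPM in the KO-labelled Pkd1 libraries and at 12.1, 9.996 and 15.9 CPM in the controls. It was 3.07-fold higher, the largest rise in the family (log2 fold change 1.62, SE 0.24, edgeR adjusted p = 0.000156), and its 6 values in the Cep120 line were 7.83 to 16.3 CPM. Slc25a23 (SCaMC-3) went the opposite way, from 36.3, 41.5 and 34.6 CPM in controls to 18.4, 17.7 and 18.02 CPM (-1.06, SE 0.12). Slc25a25 (SCaMC-2) fell as well, from 61.6, 50.9 and 45.6 CPM to 22.2, 35.7 and 28.0 CPM (-0.88, SE 0.25). Its call ended without Pkd1 KO 1 and without Pkd1 control 1. In TPM, Slc25a24 made up 67.8 to 72.5% of the sum with Slc25a23 in the KO-labelled Pkd1 libraries and 19.9 to 31.5% in Pkd1 controls, so the more abundant of the pair differed between the groups. In the Cep120 line its share was 17.4 to 35.7%.

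The phosphate carrier Slc25a3, which supplies ATP synthase, fell by 0.82 on the log2 scale (-0.82, SE 0.18), from 760.3, 862 and 551 CPM to 365, 424 and 443 CPM. None of the 3 members resembling uncoupling proteins was called. Slc25a30 and Slc25a14 had log2 fold changes of -0.17 and -0.09. Slc25a27 (UCP4) was at 7.41, 6.06 and 4.24 CPM against 1.92, 2.36 and 5.33 CPM (0.88, SE 0.38, edgeR adjusted p = 0.0741), and only control 3 overlapped the KO values. With Pkd1 control 3 left out it was called (1.44, edgeR adjusted p = 0.00458), and without any other single library it was not.

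All 4 carriers of di- and tricarboxylates fell. The largest fall of the family was that of Slc25a21, the oxodicarboxylate carrier that takes up 2-oxoadipate from lysine and tryptophan breakdown. It was at 3.35, 4.28 and 3.27 CPM in the KO-labelled Pkd1 libraries and 19.2, 20.4 and 12.7 CPM in the controls, 4.80-fold lower (log2 fold change -2.26, SE 0.22, edgeR adjusted p = 6.95e-06). Slc25a10, which exchanges malate or succinate for phosphate, went from 494, 512 and 434 CPM to 146, 193 and 198 CPM (-1.42, SE 0.17). Slc25a11, the oxoglutarate/malate arm of the malate-aspartate shuttle, went from 295, 318 and 214 CPM to 125, 155 and 167 CPM (-0.89, SE 0.17). In controls of both lines Slc25a10 exceeded Slc25a11, at 56.6 to 63.7% of their summed TPM, and in the KO-labelled Pkd1 libraries it held 48.6 to 50.4%. Slc25a1, the citrate carrier, fell by 0.49 (-0.49, SE 0.17), a call that ended without Pkd1 KO 1, Pkd1 control 1 or Pkd1 control 3.

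Among 7 amino acid carriers, 4 fell, 1 rose and 2 were not called. Slc25a15, the ornithine carrier of the urea cycle, went from 86.6, 75.4 and 66.6 CPM to 23.7, 36.6 and 28.1 CPM (-1.37, SE 0.16, edgeR adjusted p = 2.59e-05). Both aspartate/glutamate carriers fell, Slc25a13 (citrin) by 0.73 on the log2 scale (-0.73, SE 0.12) and Slc25a12 (aralar) by 0.51 (-0.51, SE 0.12). Their shares of the pair were alike, with Slc25a12 at 50.3 to 59.1% of the summed TPM in the KO-labelled Pkd1 libraries and 52.0 to 54.3% in the controls. Slc25a38, a glycine carrier needed for heme synthesis, fell by 0.49 (-0.49, SE 0.15), a call lost without Pkd1 KO 1, Pkd1 KO 3 or Pkd1 control 2. Slc25a29, a carrier of basic amino acids, was at 6.91, 7.96 and 9.80 CPM against 5.89, 3.16 and 4.08 CPM and rose (0.90, SE 0.23, edgeR adjusted p = 0.00644). The glutamate carrier Slc25a22 (0.19) and the branched-chain amino acid carrier Slc25a44 (-0.09) were not called.

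The 9 cofactor and nucleotide carriers included 6 that fell and none that rose. Slc25a42, which brings coenzyme A into the matrix, went from 58.4, 70.1 and 42.4 CPM to 17.2, 17.6 and 19.3 CPM (-1.66, SE 0.17, edgeR adjusted p = 1.1e-05). Slc25a16, also linked to coenzyme A, went from 27.7, 26.7 and 26.5 CPM to 10.1, 11.7 and 11.5 CPM (-1.28, SE 0.13). Within each group these values for Slc25a16 were close together, and no KO value came near a control. Slc25a33, a pyrimidine nucleotide carrier, was low in all libraries and went from 3.91, 4.42 and 2.99 CPM to 1.02, 1.48 and 1.18 CPM (-1.61, SE 0.29). Its relative Slc25a36 fell by 0.47 (-0.47, SE 0.11), and the peroxisomal carrier Slc25a17 by 0.44 (-0.44, SE 0.11). The carriers of S-adenosylmethionine (Slc25a26, -0.41), folate or FAD (Slc25a32, -0.25) and NAD (Slc25a51, -0.02) were not called.

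Of the remaining roles, Slc25a39 went from 452, 405 and 334 CPM to 150.4, 221 and 204 CPM (-1.05, SE 0.20), and its weaker relative Slc25a40 fell by 0.53 (-0.53, SE 0.19). The call of Slc25a40 ended when any of Pkd1 KO 1, Pkd1 KO 2, Pkd1 control 1 or Pkd1 control 2 was left out. Slc25a20, the carnitine/acylcarnitine carrier of fatty acid oxidation, was not called (-0.28, SE 0.18, edgeR adjusted p = 0.213). Neither mitoferrin was called, Slc25a37 at -0.34 and Slc25a28 at 0.60. Slc25a46, an outer-membrane protein of mitochondrial dynamics, fell by 0.50 (-0.50, SE 0.12).

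Members without a settled substrate gave 3 of the 5 rises. Slc25a43 was at 2.03, 2.74 and 2.51 CPM in the KO-labelled Pkd1 libraries and 0.782, 1.16 and 0.642 CPM in the controls (1.505, SE 0.32, edgeR adjusted p = 0.00239). Slc25a53 was at 6.53, 8.28 and 8.11 CPM against 3.35, 2.21 and 4.69 CPM (1.15, SE 0.26). Slc25a48 was at 6.70, 5.19 and 5.10 CPM against 2.57, 2.36 and 4.23 CPM (0.89, SE 0.28, edgeR adjusted p = 0.0205), a call that ended without Pkd1 KO 1, Pkd1 control 1 or Pkd1 control 2. In this group Slc25a34 fell, from 7.10, 8.79 and 6.35 CPM to 3.11, 3.61 and 3.84 CPM (-1.07, SE 0.22), and so did Slc25a45 (-0.47, SE 0.16), a call lost without any 1 of 5 libraries (all but Pkd1 control 3). Slc25a35 (-0.52) and Slc25a47 (0.56) were not called.

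**Figure D3:**
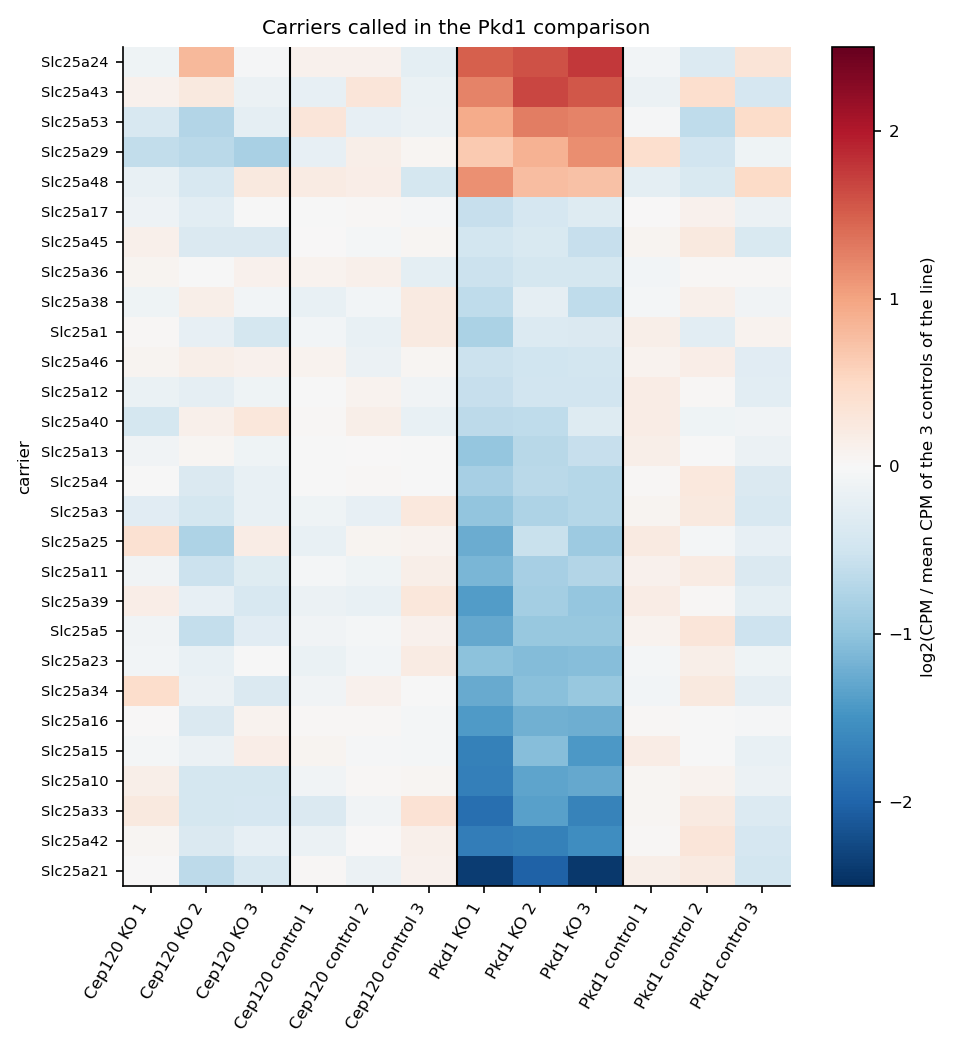
Each cell is the log2 ratio of a library's CPM to the mean CPM of the 3 controls of its own line, for carriers called in the Pkd1 comparison. The 3 columns of Pkd1 KO stand apart from the 9 others, with 5 red rows at the top. The rows were chosen by the Pkd1 test, so the distance of Pkd1 KO from Pkd1 control follows from that choice. Among the Pkd1 controls the third is the lowest in most of the falling rows.

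Among the members, change went with level, taken as the mean over all 12 libraries, the KO-labelled ones included. Calls by level were not counted over all genes, so whether other genes show the same was not tested. Of all genes tested 44.4% were called, and 55.3% under a filter of 5 CPM in 3 libraries. All 5 members that rose averaged below 10 TPM. Of the 8 members above 100 TPM, 7 fell and 1 (Slc25a20) was not called, with a median log2 fold change of -0.85. Among the 15 between 10 and 100 TPM, 11 fell, none rose and the median was -0.51. Among the 19 below 10 TPM, 6 fell and 5 rose, with a median of -0.09. The share of TPM held by the family was 0.411% ± 0.038 (SD, n = 3) in the KO-labelled Pkd1 libraries and 0.654% ± 0.0762 in the Pkd1 controls.

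The counted transcripts were not all coding. The transcript table accounted for at least 99% of gene TPM in every library for 27 of 42 members. Of Slc25a53, only 0 to 3.70% of the TPM was assigned to coding transcripts, so its rise was in non-coding transcripts of the locus for the most part. Of Slc25a12, 10.8 to 15.3% was coding, and a transcript marked for nonsense-mediated decay held 65.4%. For Slc25a28 the coding part was 14.5 to 52.0%. By contrast, coding transcripts made up 97.8 to 98.4% of Slc25a5, 93.3 to 95.8% of Slc25a10, 95.1 to 100% of Slc25a16 and 84.4 to 100% of Slc25a29. Exons of a gene on the opposite strand overlap Slc25a10 (Gm11788), Slc25a11 (Rnf167), Slc25a21 (Pax9), Slc25a23 (Gm17168), Slc25a25 (Naif1), Slc25a33 (Gm13068) and Slc25a46 (B930094E09Rik) in GENCODE M21, and among members that were not called Slc25a26 (Lrig1), Slc25a35 (Rangrf) and Slc25a37 (Gm27223 and Gm31748). Strand use in counting is not given among these sources, so reads of such pairs cannot be told apart.

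Genes around the carriers were set beside them from lists of the other inner-membrane machinery, with counts called at the same threshold. Of 83 nuclear-encoded respiratory chain genes tested, 79 fell and 1 (Cox7a2l) rose, with a median log2 fold change of -1.14. Of 9 genes of general mitochondrial content, such as Vdac1 and Hspd1, 8 fell (median -0.79). TIM22 inserts carrier proteins into the inner membrane, and 9 of 12 genes of this route fell (median -0.52), among them Timm9 (-1.17) and Timm8a1 (-1.26). The pyruvate carrier, which is not an Slc25 protein, fell in both subunits, Mpc1 by 1.68 (-1.68) and Mpc2 by 1.47 (-1.47). Mpc1 may share reads with the pseudogene Mpc1-ps, listed at 131 to 445 TPM. The pseudogene of Slc25a5, Slc25a5-ps, was listed at 0.129 to 0.859 TPM.

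Of 24 enzymes that use the carriers' substrates, 14 fell and 3 rose. Ass1 (-2.64), which uses citrulline, and Asl (-1.31), which cleaves the product of Ass1, fell. Arg1 (3.70), Arg2 (1.11) and Oat (0.53), which act on arginine and ornithine, rose. Mdh1 (-2.09), Got1 (-1.16), Mdh2 (-0.85) and Got2 (-0.70) of the malate-aspartate shuttle fell. Cpt2 fell (-1.09), while Cpt1a had a log2 fold change of 0.04. Of 11 genes listed as regulators of mitochondrial biogenesis, 8 fell, including Ppargc1a (-1.51) and Esrra (-1.72), and 1 rose, Nrf1 (0.51). Hnf4a (-1.69), counted among the 8, is not specific to mitochondria. Members of the carrier family under other names differed among themselves. Mtch1 rose (0.43), Mtch2 fell (-0.44), and Ucp2 had a log2 fold change of 0.18. Ucp1, the uncoupling protein of brown fat, was at 6.60, 0.134 and 0.984 TPM against 141, 147 and 23.6 TPM.

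**Figure D4:**
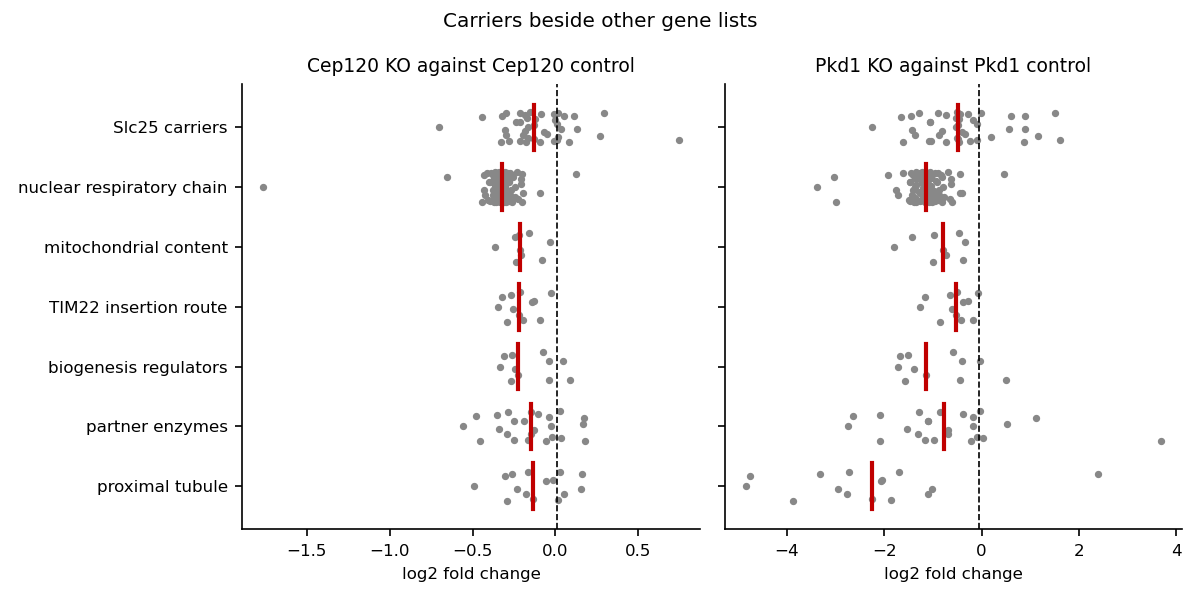
Log2 fold changes of single genes (grey points) and list medians (red bars) for the carriers and 6 other lists in each line, with the median of all 19890 genes as a dashed line. In the Pkd1 line the carriers' median of -0.49 lies between the -1.14 of the respiratory chain and the -0.04 of all genes.

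Markers of kidney cell types changed as well, in differing directions. All 15 proximal tubule markers were detected in every library, and 14 fell while Cyp2e1 rose (2.39), with a summed level of 1899 to 2253 TPM in the KO-labelled Pkd1 libraries against 9434 to 11514 TPM in Pkd1 controls (median log2 fold change -2.25). Markers of the thick ascending limb fell in 4 of 5 cases, and those of the distal convoluted tubule and of endothelial cells in 3 of 4 each. Podocyte markers fell in 2 of 4 cases, and all 4 markers of cycling cells fell. Of 4 markers of intercalated cells, which also belong to the collecting duct, 3 fell and 1 rose. Their summed level overlapped, at 62.0 to 71.1 TPM in the KO-labelled Pkd1 libraries against 47.1 to 80.6 TPM in the controls. Slc4a1, on this list, is also on the erythroid list. All 5 principal cell markers rose (1500.04 to 2998 TPM against 266 to 666), as did 6 of 6 macrophage and 4 of 4 stromal markers. All 7 erythroid markers fell (1268 to 3931 TPM against 16221 to 20501). Summed fat markers ran from 85.9 to 1765 TPM in the KO-labelled Pkd1 libraries and from 533 to 1215 TPM in the controls. Adrenal markers reached 538 TPM in Pkd1 KO 3 and were at most 1.51 TPM in the 11 others. In whole-kidney RNA, fewer cells of a type and less of a transcript per cell cannot be told apart, and the part of these cell types in the carriers' changes was not tested.

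Position and Xist were examined for the called members. By the RefSeq gene table of GRCm38.p6, Slc25a5, Slc25a14, Slc25a43 and Slc25a53 lie on the X chromosome, so 2 of the 5 members that rose are X-linked. Slc25a43 and Slc25a5 are direct neighbours there, with 0 protein-coding genes between them, and they changed in opposite directions (1.505 and -1.06). Slc25a29 and Slc25a47 are direct neighbours on chromosome 12 (0.90, and 0.56 without a call). With Xist presence as a term in the fit, 11 members fell and none rose, against 10.1% of all genes called. All 5 rises lost their call there, with Slc25a24 at 1.16 (edgeR adjusted p = 0.0993). Among the 11 were Slc25a10, Slc25a13, Slc25a15, Slc25a16, Slc25a21, Slc25a23, Slc25a33, Slc25a34, Slc25a39 and Slc25a42. Xist presence varied within a group only among the Cep120 KO libraries, so this term rests on Cep120 KO 1 and 2 against Cep120 KO 3.

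Pkd1 control 3 was the control nearest the KO libraries for 24 of the 29 called members, against 2 and 3 for controls 1 and 2, and for 55.3% of all 8839 called genes. Without it, 26 members fell and 6 rose, beside 42% of all genes called. With both control libraries numbered 3 left out the counts were again 26 and 6, beside 44.4% of all genes.

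The second comparison asked the same of kidneys labelled Cep120 KO, and no carrier passed the test. None of 42 members was called by edgeR, DESeq2 or voom. Of all genes, 0% were called by edgeR and by voom and 0.106% (21 genes) by DESeq2. At an unadjusted p under 0.05 there was 1 member, and 1201 of all genes. The median log2 fold change was -0.13 over the members, with 12 above 0, and 0.01 over all genes. Standard errors came from 1 fit in which all groups share an estimate of the spread. Their medians, 0.18 in both lines, therefore do not compare the precision of the lines. Summed TPM was 7039 ± 709 (SD, n = 3) in the KO-labelled Cep120 libraries and 7398 ± 137 in Cep120 controls, with overlapping ranges.

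The smallest p-values in the Cep120 line belonged to Slc25a29, Slc25a27, Slc25a11 and Slc25a3. Slc25a29 was at 4.27, 4.10 and 3.73 CPM in the KO-labelled Cep120 libraries and 5.71, 7.24 and 6.77 CPM in the controls (-0.71, SE 0.23, unadjusted p = 0.00892 and edgeR adjusted p = 0.757). These groups did not overlap, and the values lay on the side opposite to the Pkd1 line. Slc25a27 was at 5.12, 5.24 and 3.90 CPM against 2.77, 3.87 and 1.87 CPM (0.75, SE 0.38), also without overlap. For Slc25a11 the values were 271, 197 and 233 CPM against 279.6, 266 and 318 CPM (-0.30, SE 0.17). Those of Slc25a3 were 571, 518 and 619 CPM against 651, 605 and 843 CPM (-0.30, SE 0.18). In all, 1 member was higher and 6 were lower without overlap between groups, and 16.5% of all genes had groups that did not overlap (8.64% higher, 7.88% lower). The 6 were Slc25a4, Slc25a5, Slc25a12, Slc25a26, Slc25a29 and Slc25a53. In TPM only Slc25a29 and Slc25a53 of these stayed without overlap, so the separation of the others depends on the scaling. Slc25a12 had a mean of 44.4 TPM in the KO-labelled Cep120 libraries and 43.0 TPM in the controls. Respiratory chain genes had a median log2 fold change of -0.32 with 0 called. Ucp1 ran from 0.059 to 111 TPM over the 3 KO-labelled Cep120 libraries and from 70.7 to 137 TPM in their controls, beside fat markers of 312 to 954 against 925 to 1045 TPM.

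Of the 24 members that fell in the Pkd1 line, 19 had a log2 fold change below 0 in the Cep120 line (79.2%), against 59.3% of all 4451 genes that fell. Of the 5 that rose, 2 were above 0 there. Over all 42 members, whatever their call in the Pkd1 line, 12 were above 0 in the Cep120 line. With the deposited log2 CPM values 22 of the 42 were above 0, so these signs depend on the scaling. They are signs of values that were not called in the Cep120 line.

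The third comparison tested the difference between the effects in the 2 lines, which share no controls. It was past the threshold for 17 of 42 members, 13 lower and 4 higher in the Pkd1 line, against 28.1% of all genes (13.9% higher, 14.2% lower). The smallest p-values were those of Slc25a16 (-1.21, SE 0.18), Slc25a21 (-1.94, SE 0.30), Slc25a42 (-1.49, SE 0.24) and Slc25a15 (-1.36, SE 0.22), all carriers without overlap in the Pkd1 line. In the Cep120 line these members were not called, at log2 fold changes of -0.07, -0.32, -0.16 and -0.01. Slc25a29 had a difference of 1.61 (SE 0.32), the largest among the 4 that were higher. The ADP/ATP carriers Slc25a4 (-0.56) and Slc25a5 (-0.75), the phosphate carrier Slc25a3 (-0.52) and Slc25a11 (-0.59) fell in the Pkd1 line without a called difference between lines. With Pkd1 control 3 left out, those 4 differences were called. Leaving out any other single library called none of them, apart from Slc25a5 without Cep120 KO 2.

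Shares within pairs of related carriers were also compared by library (plot of shares within pairs). For Slc25a24 with Slc25a23 the order of the 2 members in every KO-labelled Pkd1 library was opposite to that in the 9 other libraries. Slc25a10 was below Slc25a11 in KO-labelled Pkd1 libraries 1 and 3 and just above it in library 2, at 50.4%. Slc25a28 held 67.1 to 80.8% of the summed TPM with Slc25a37 in the KO-labelled Pkd1 libraries and 51.3 to 73.3% in the controls, which overlap. Slc25a39 exceeded Slc25a40 in every library, at 97.451 to 98.9% of their sum.

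**Figure D5:**
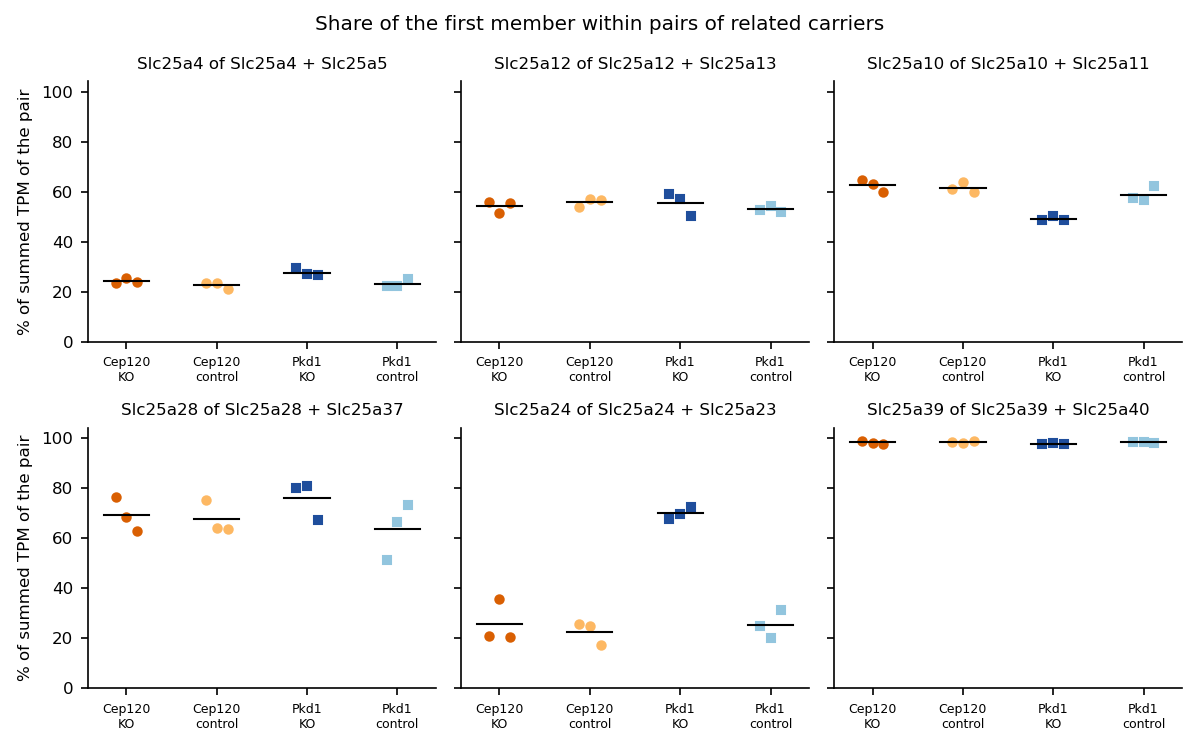
Share of the first member in the summed TPM of 6 pairs of related carriers, with 1 point per library and a bar for the mean of 3. Slc25a24 sits at 67.8 to 72.5% in Pkd1 KO and at 35.7% or less in the other groups, and Slc25a10 sits near 49.2% in Pkd1 KO and at 56.6% or more elsewhere.

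The 2 control groups were compared to see how far the lines differed without the KO. No member was called (0% of all genes), and the median log2 fold change of the members was -0.04. Groups did not overlap for 2 members higher and 2 lower, against 8.12% of all genes (4.18% higher, 3.94% lower).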

How the data were processed

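Whole kidneys at postnatal day 15 were ground in liquid nitrogen, and cDNA was made from Trizol RNA with a SMARTer Ultra Low kit, per the labels' protocols. The submitters' processing notes name STAR 2.5.1a, featureCounts 1.4.6-p5, Salmon 0.8.2 and mm9 without roles. The gene table holds estimated counts that the authors deposited unnormalized (21.6% of genes had values that were not whole). The gene and transcript TPM tables were deposited by the authors as TPM, which corrects for depth and length. The deposited log2 table holds log2 CPM with an unstated prior count, and it served as an alternative only.

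Counts were rounded and tested with edgeR 4.0.16 (quasi-likelihood, TMM factors, filterByExpr) in 1 fit of 12 libraries and 19890 genes. P-values were Benjamini-Hochberg adjusted over all genes, with calls below 0.05. Lines that repeat a gene ID (287 of 55774) were dropped. Standard errors are the size of the log2 fold change over the root of F. CPM values use the TMM-scaled library sizes. The fit was tested on simulated data. Totals were 23070736 to 31837973 counts per library, and the standard errors also hold the spread between the libraries of a group.

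Groups came from the titles. Genes with values in every library were the 6 largest rises and 8 largest falls among called members of a comparison (or, with none called, the 4 smallest p-values), the 4 smallest p-values of the difference, the 6 highest mean TPM, and pairs of related carriers; others were named for their role. The members and all gene lists were chosen with earlier results of these data known. Alternatives were RLE and upper quartile factors, DESeq2 1.42.0, limma 3.58.1 with voom, other filters and thresholds, a replicate block, terms for Xist and for the detected-gene class, single lines, and leaving out libraries. Other deposited tables were not used here. The values of 1 member are not reported here, and it stays in the counts, sums and medians.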

Additional observations from a re-analysis of the deposited data

Results flagged for a closer look

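For 17 carriers the effect in the Pkd1 line differed from that in the Cep120 line by a test of the difference itself (edgeR, adjusted p under 0.05). On the log2 scale 4 differences were positive, Slc25a29 at 1.61, Slc25a53 at 1.59, Slc25a43 at 1.42 and Slc25a24 at 1.33. The negative ones were led by Slc25a21 (-1.94), Slc25a42 (-1.49), Slc25a33 (-1.44) and Slc25a15 (-1.36). Slc25a10 and Slc25a16 were both at -1.21, Slc25a34 at -1.09, Slc25a23 at -0.97 and Slc25a39 at -0.92. The smallest were Slc25a13 (-0.68), Slc25a46 (-0.61) and Slc25a36 (-0.52). For Slc25a29 and Slc25a53 the fold changes of the 2 lines had opposite signs, 0.90 and -0.71 for the first and 1.15 and -0.44 for the second. Neither was called in the Cep120 line. Signs were also opposite for Slc25a46, Slc25a36 and Slc25a34, which fell in the Pkd1 line and were at 0.11, 0.05 and 0.02 in the Cep120 line, without a call there. Under the alternatives, 8 of the 17 calls held throughout, and that of Slc25a43 held in 9 of 24.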

How the results depend on the processing

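No carrier that passed the test changed direction under any alternative, and 10 of the 29 calls in the Pkd1 comparison held in every alternative in which the gene was tested. The count of 29 (5 higher, 24 lower) was 14 (3 higher, 11 lower) when a 2-fold change was also required (23.1% of all genes), and 11 (0 higher, 11 lower) with Xist as a term. With that term 10.1% of all genes were called. Leaving out 1 library at a time gave 23 to 32 called in that comparison, with 4 to 6 higher and 19 to 26 lower, beside 35.1 to 42% of all genes, and 14 to 22 for the difference between lines, beside 20.5 to 28%. The difference gave 10 members at an adjusted p below 0.01 (13.8% of all genes), against 17. Between the control groups, 1 member was called without both control libraries numbered 3, Slc25a46 (0.55, edgeR adjusted p = 0.0471), beside 1.8% of all genes. In the Cep120 comparison the count stayed at 0 in every alternative run. Replicate numbers are shared by the groups of a line, but they were not taken to pair the libraries, since not every same-numbered pair deviated together. The correlations were 0.178, -0.054 and 0.148 in the Cep120 line and -0.096, -0.043 and -0.136 in the Pkd1 line. With the replicate block the counts were 27 in the Pkd1 comparison (5 higher, 22 lower; 39.2% of all genes), 15 for the difference (21.9%) and 0 in the other comparisons. The deposited log2 values with limma, which change the scaling, prior count and method together, gave a median of 0.15 over all genes in the Cep120 line, against 0.01, and of 0.00 over the members, against -0.13. Upper quartile factors moved the median difference between lines from -0.06 to -0.17 over all genes and from -0.41 to -0.51 over the members. Slc25a33, Slc25a43 and Slc25a47, low in every library, were not tested at a minimum of 5 CPM.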
